A study of Mus musculus with 11 samples.

Results

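The antiviral interferon-stimulated genes considered here are 41 named genes, many of whose products sense, degrade or block viruses. Others are transcription factors, such as Irf7, or have further roles, such as Rtp4 and Lgals3bp. They were followed over all arrays of a study of mouse CD4 T cells that carried the transcription factor FoxP3 or 1 of 2 amino acid variants of it, A384T and R397W. A probe set was taken as a member when its annotation gave exactly 1 gene symbol and that symbol was on the list. This found 39 of the 41 genes on 71 of 45037 probe sets tested, out of 18193 genes with a symbol of their own. Isg15 shares its only probe set with other symbols and Ifi44 has none listed. Of the 39 genes, 19 are read by several probe sets, which were all kept.

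The cells of every group came from spleen and lymph nodes of BALB/cA mice and were naive CD4 T cells, CD25 negative and CD45RB high. They were activated with anti-CD3e at 0.5 µg/ml and IL-2 at 10 ng/ml together with T-cell-depleted syngeneic splenocytes that had received 20 Gy of irradiation. Retrovirus made with the MIGR1 vector, which carries GFP, was added by spin infection 24 h later, and GFP-high CD4 T cells were sorted on day 7. The groups were mock (empty MIGR1, 3 arrays), WT FoxP3 (3 arrays), A384T FoxP3 (3 arrays) and R397W FoxP3 (2 arrays). All groups therefore share activation, feeder cells and a retrovirus, and FoxP3 came from the vector, not from the cell's own gene. No label names a separate culture or animal for each array, so the p-values rest on a spread between arrays that could be purely technical.

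Values are log2 differences from the mock median of each probe set, so they show how groups differ but not how abundant a transcript was. They cannot be compared in level between genes. A probe set was called at an adjusted p under 0.05 in a limma fit of all 11 arrays, with Benjamini-Hochberg adjustment over all 45037 probe sets, and errors of differences are standard errors (SE). The Foxp3 probe set was called in no group over mock, with 0.04 ± 0.15 for WT (adjusted p = 0.976), 0.27 ± 0.15 for A384T and -0.27 ± 0.17 for R397W. It does not check the labels, because no source used here says if its probes match the part of Foxp3 that the vector carries. Array medians over all probe sets lay between -0.016 and 0.00192. Arrays carrying the same number tended to deviate together, most clearly those numbered 1, so a fit with that number as a block was made too. Calls are those without the block unless the block is named.

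Type I interferons bind the receptor chains IFNAR1 and IFNAR2, and the kinases JAK1 and TYK2 then phosphorylate STAT2. With IRF9 it forms part of the complex ISGF3, which binds the interferon-stimulated response element (ISRE) in the promoters of antiviral genes, and IRF7 amplifies the production of interferon itself. T cells keep a low tonic activity of this pathway and raise it during viral infection, where interferon acts on their growth, survival and differentiation.

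The response element was looked for in RefSeq promoter sequences (GRCm38.p6), 250 bases before to 50 bases after each annotated start, which were given for 31 of the 41 genes. The core GAAANNGAAA was found on either strand in 13 of the 31 genes. By promoter, it was in 14 of their 39, against 3.44% of 32851 promoters. The core of the STAT site, TTCNNNGAA, was found in 9 of the 31 genes and 9 of the 39 promoters, against 8.3% of all promoters. The forkhead core TGTTTAC was found in 1 of 31 genes (Rsad2) and 1 of 39 promoters, against 3.65%. Matches can overlap one another, as the tandem ISRE cores of Isg15, Oas1a and Bst2 do. The 12 genes that were called without the block in some comparison and had a promoter sequence included 4 with an ISRE core. The other 19 included 9, but these do not all stand for genes that stayed unchanged. Isg15 is among them and had no member probe set, so it could not be called. Ifit3, Bst2 and Eif2ak2 are also among them and were called with the block only. The 4 genes that were called without the block and hold a core are printed here, 5′ to 3′ on the gene's strand. In WT over mock, Ifitm3 was called higher and Oas3, Ifit1 and Ddx58 were called lower. Capitals mark the ISRE core, which reads TTTCNNTTTC where it lies on the opposite strand.
Ifitm3, chr7:141010715-141010744, minus strand, the first 30 bases from the start: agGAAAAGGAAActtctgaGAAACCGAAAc
Oas3, chr5:120777660-120777909, minus strand, 250 bases before the start: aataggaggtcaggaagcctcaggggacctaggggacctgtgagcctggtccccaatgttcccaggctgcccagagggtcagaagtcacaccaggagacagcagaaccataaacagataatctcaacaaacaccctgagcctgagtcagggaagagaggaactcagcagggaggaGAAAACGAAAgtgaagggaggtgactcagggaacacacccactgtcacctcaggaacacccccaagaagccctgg
Ifit1, chr19:34640639-34640888, plus strand, 250 bases before the start: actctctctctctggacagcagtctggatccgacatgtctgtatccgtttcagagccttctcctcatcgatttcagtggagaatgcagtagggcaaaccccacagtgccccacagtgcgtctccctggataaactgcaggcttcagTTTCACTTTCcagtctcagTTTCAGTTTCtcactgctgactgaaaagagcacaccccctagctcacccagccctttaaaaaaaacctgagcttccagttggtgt
Ddx58, chr4:40239804-40239833, minus strand, across the start: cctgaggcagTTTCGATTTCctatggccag
Ifitm3 and Ifit1 each hold 2 cores and Oas3 and Ddx58 each hold 1. In Ifitm3 a match to the STAT core lies across the edge of the downstream ISRE core. A match is a description of the letters and does not show binding.

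The study's central comparison asks what FoxP3 does to these cells, and with WT FoxP3 more of the antiviral probe sets were called lower than higher. Of the 71 probe sets, 11 were lower and 1 was higher, where 1.17% and 1.49% of all 45037 probe sets were called lower and higher. The 11 belong to 10 genes, led by Rtp4, Ifit1, Oas3 and Irf7, each lower by over 3-fold, and the 1 higher was Ifitm3. The median difference of the members was -0.178 against -0.0127 over all probe sets, and 52 of 71 (73.2%) lay below 0 against 53.3% of all. With the replicate block, 18 were lower and 1 was higher, against 3.65% and 3.98% of all probe sets. The members were chosen with earlier results of these data known. Shares over all probe sets, here and below, are therefore not an unbiased yardstick for them. Fewer cells with a transcript and less transcript per cell cannot be told apart in these bulk samples.

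**Figure D1:**
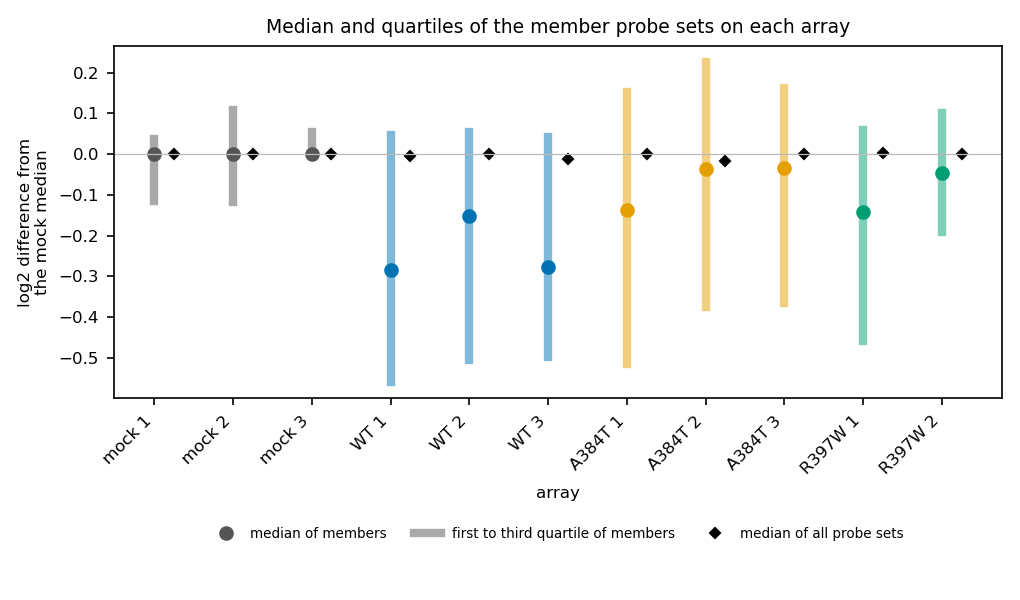
Median (circle) and interquartile range (bar) of the 71 member probe sets on each of the 11 arrays, as log2 differences from the mock median, with the median of all probe sets as a diamond. The WT medians sit between -0.284 and -0.152, A384T between -0.137 and -0.034, and R397W at -0.143 and -0.0456, while the diamonds stay near 0.

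Among the transcription factors, Irf7 read -0.0028, 0.26 and 0 in mock and -1.74, -1.40 and -1.82 with WT FoxP3. It read -0.66, -0.84 and -0.59 with A384T and -0.58 and -0.32 with R397W. The WT arrays lay lowest, then A384T, R397W and mock, and no group overlapped another. Irf7 was 3.34-fold lower with WT FoxP3 (-1.74 ± 0.14, adjusted p = 0.000156) and fell by less with A384T (-0.78 ± 0.14, adjusted p = 0.0174). That the A384T difference is the smaller was itself called, with A384T over WT at 0.96 ± 0.14 (adjusted p = 0.0436). R397W was 1.21 ± 0.16 over WT (adjusted p = 0.00354) and -0.53 ± 0.16 over mock, which was not called.

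Irf9, the DNA-binding partner of STAT2, read -0.13, 0 and 0.35 in mock, -0.97, -1.10 and -0.65 with WT, -0.70, 0.36 and -0.31 with A384T and -0.66 and -0.26 with R397W. WT arrays lay below every mock array and mostly below the others. The difference of -0.98 ± 0.25 for WT over mock missed the threshold (adjusted p = 0.0822) and was called with the block (adjusted p = 0.0125). Stat2 is read by 2 probe sets, of which 1421911_at read -0.35, 0 and 0.0021 in mock, -0.79, -0.59 and -0.27 with WT, -0.93, -0.15 and -0.14 with A384T and -0.37 and -0.23 with R397W. The other, 1450403_at, read 0, -0.12 and 0.11 in mock, -0.11, 0.07 and -0.34 with WT, 0.32, 0.47 and -0.02 with A384T and -0.13 and 0.21 with R397W. The groups overlapped on both, and neither was called in any comparison, with WT over mock at -0.44 ± 0.22 (adjusted p = 0.523) and -0.12 ± 0.16.

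The IFIT proteins bind viral RNA and block its translation. Ifit1, whose promoter holds 2 ISRE cores, read -0.76, 0 and 0.03 in mock, -2.43, -2.57 and -1.93 with WT, -1.32, -1.64 and -0.70 with A384T and -1.46 and -1.22 with R397W. Mock 1 stood apart from the other 2 mock arrays, yet every WT array lay below every other array. WT over mock was -2.07 ± 0.28, a 4.19-fold lower value (adjusted p = 0.0033). With A384T the difference from mock of -0.98 ± 0.28 was not called (adjusted p = 0.137) but was called with the block (adjusted p = 0.00732), as was A384T over WT at 1.09 ± 0.28 (adjusted p = 0.469, with the block 0.0261). R397W over WT was 0.97 ± 0.31 (adjusted p = 0.24) and was called with the block (1.16 ± 0.21, adjusted p = 0.00751).

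Ifit2 behaved differently across the variants. Its values were 0.18, -0.28 and 0 in mock, -1.24, -0.95 and -1.05 with WT, -0.80, -0.56 and -0.84 with A384T and 0.31 and 0.17 with R397W. All WT and A384T arrays lay below all mock arrays, and both R397W arrays lay near the top of the mock range or above it. The differences from mock were -1.05 ± 0.14 for WT (adjusted p = 0.00289), -0.70 ± 0.14 for A384T (adjusted p = 0.0302) and 0.27 ± 0.15 for R397W, the last not called. R397W exceeded both other FoxP3 forms, by 1.32 ± 0.15 over WT (adjusted p = 0.00228) and 0.97 ± 0.15 over A384T (adjusted p = 0.0132). Ifit3, which neighbours Ifit2 in the genome, was -0.46 ± 0.11 with WT (adjusted p = 0.0563, with the block 0.0155) and -0.01 ± 0.11 with A384T.

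The OAS enzymes make short oligoadenylates that switch on the RNA-degrading enzyme RNase L. Oas3, with 1 ISRE core in its promoter, read -0.43, 0.28 and 0 in mock, -1.86, -2.11 and -1.77 with WT, -0.61, -1.11 and -1.09 with A384T and -0.67 and 0.11 with R397W. WT arrays were lowest and A384T arrays came next, and R397W 1 fell among the low values where R397W 2 lay with mock. Oas3 was 3.64-fold lower with WT (-1.86 ± 0.24, adjusted p = 0.00231), and R397W was 1.63 ± 0.27 over WT (adjusted p = 0.013). A384T over mock, at -0.89 ± 0.24, was not called (adjusted p = 0.109, with the block 0.0411).

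Oas2, the genomic neighbour of Oas3, read -0.11, 0 and 0.10 in mock, -1.21, -0.71 and -1.01 with WT, -0.69, -1.05 and -0.69 with A384T and -0.45 and -0.17 with R397W. Here WT and A384T arrays covered the same range, below every mock and R397W array. It fell with both, by 0.97 ± 0.15 with WT (adjusted p = 0.00757) and 0.81 ± 0.15 with A384T (adjusted p = 0.0231), on the log2 scale. R397W over WT was called with the block only (0.70 ± 0.17, adjusted p = 0.0343). Oasl1, an OAS-like protein that limits Irf7 translation, was -0.45 ± 0.13 with WT (adjusted p = 0.121) and was called with the block (adjusted p = 0.0482), as was A384T over mock (-0.52 ± 0.12, adjusted p = 0.0275). Oas1a and Oasl2 were not called anywhere, at -0.20 ± 0.18 and 0.04 ± 0.09 for WT over mock.

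**Figure D2:**
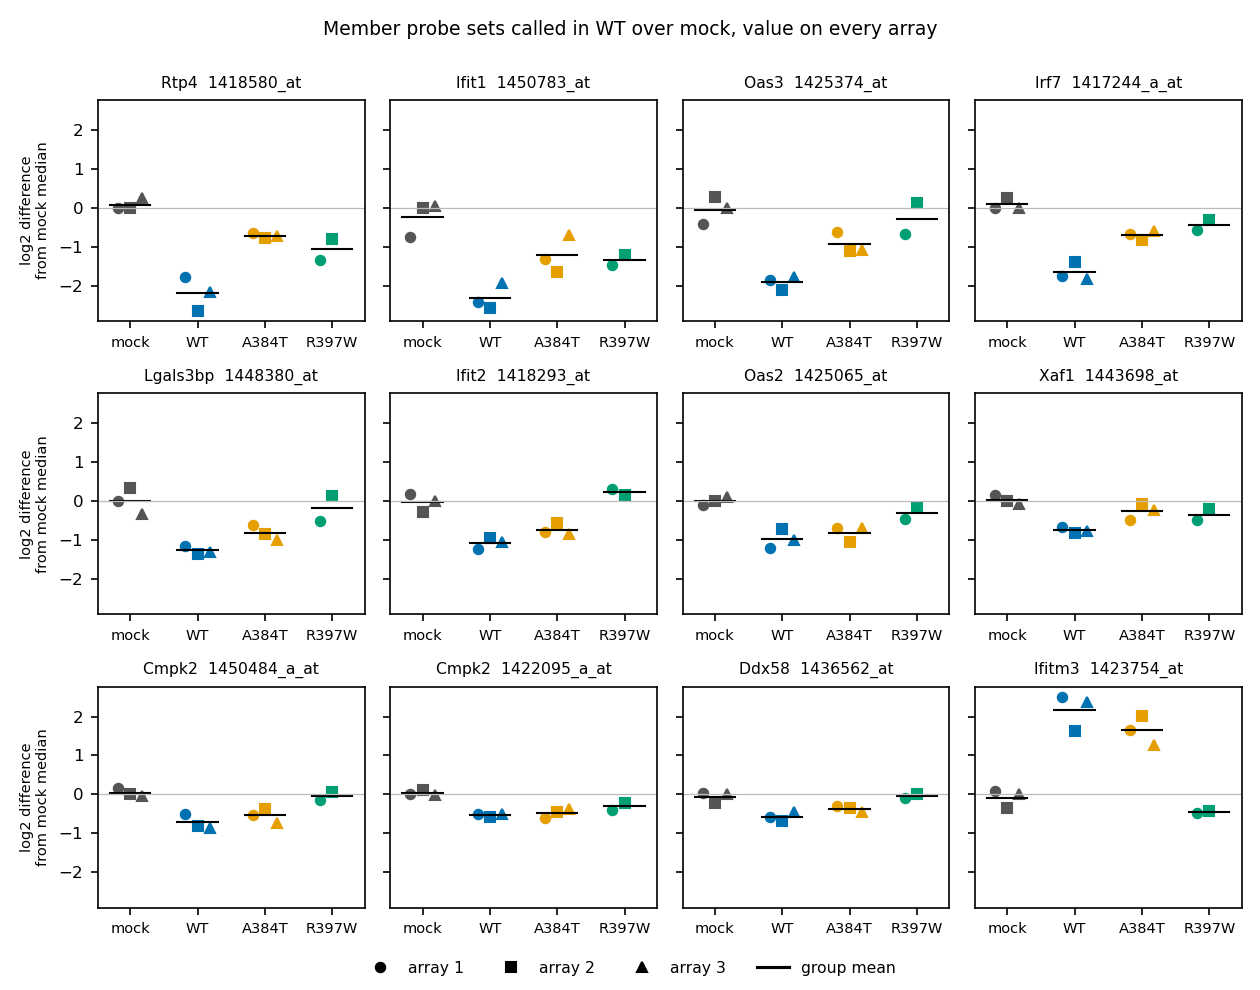
Values on each of the 11 arrays (points) and group means (bars) for the 12 member probe sets called in WT over mock, as log2 differences from the mock median. Each panel is 1 probe set and the symbol gives the array number. Irf7, Ifit1, Oas3 and Rtp4 are lowest with WT, and Ifitm3 lies at 1.27 or above with WT and A384T and at -0.41 or below with R397W.

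Membrane and GTPase restriction factors gave the exception to the direction. Ifitm3, which stops viruses from fusing with endosomal membranes, read 0.09, -0.34 and 0 in mock, 2.51, 1.63 and 2.38 with WT, 1.64, 2.01 and 1.27 with A384T and -0.47 and -0.41 with R397W. Every WT and A384T array was far above every mock and R397W array, and both R397W arrays lay below the lowest mock array. Ifitm3 was 4.79-fold higher with WT (2.26 ± 0.25, adjusted p = 0.000915) and 3.31-fold higher with A384T (1.72 ± 0.25, adjusted p = 0.005). R397W was -2.61 ± 0.27 over WT (adjusted p = 0.00129) and -2.08 ± 0.27 over A384T (adjusted p = 0.00479). Its genomic neighbours Ifitm1 and Ifitm2 were also higher with WT, as given with the other interferon-stimulated genes. Whether the probes tell these similar genes apart was not tested.

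The remaining genes of this class did not pass the test with WT. Bst2 (tetherin), which holds budding virus at the cell surface, was -0.63 ± 0.28 (adjusted p = 0.436, with the block 0.043). The GTPases Mx1, a gene defective in most laboratory mouse strains, and Mx2 were -0.08 ± 0.11 and -0.42 ± 0.14. The 3 probe sets of Rsad2 (viperin) lay between -0.42 and 0.01.

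Of the 15 probe sets for sensors and kinases that detect viral nucleic acid, 1 was lower with WT and 0 were higher. The shares over all probe sets were 1.17% and 1.49%. Ddx58 (RIG-I, a sensor of viral RNA ends) is read by 3 probe sets, of which 1436562_at read 0.04, -0.22 and 0 in mock, -0.59, -0.67 and -0.46 with WT, -0.30, -0.35 and -0.46 with A384T and -0.09 and 0.01 with R397W. WT and A384T arrays lay below all mock and R397W arrays on it, and it fell by 0.51 with WT (SE 0.10, adjusted p = 0.0297). This was the smallest difference called in WT over mock, and leaving out mock 1, mock 3, WT 1 or WT 2 lost it (adjusted p up to 0.119). The other Ddx58 probe sets were -0.69 ± 0.16 and -0.25 ± 0.36 and not called, although 1456890_at was called with the block (-0.69 ± 0.12, adjusted p = 0.00489). With the block, R397W also exceeded WT on 1436562_at (0.55 ± 0.12, adjusted p = 0.0262) and 1456890_at (0.53 ± 0.14, adjusted p = 0.0488). Zbp1, a sensor of Z-form nucleic acid, went the other way with A384T on 1429947_a_at, at 0.70 ± 0.17 over mock (adjusted p = 0.0699, with the block 0.0013). The block also called Zbp1 1419604_at higher with A384T than with mock (0.45 ± 0.11, adjusted p = 0.0293) and WT (0.63 ± 0.11, adjusted p = 0.0321), and 1429947_a_at lower with R397W than with A384T (-0.81 ± 0.11, adjusted p = 0.00165). The sensors Ifih1 (MDA5) and Dhx58, the kinase Eif2ak2 (PKR) and the RNA editor Adar had no probe set called without the block, and their differences with WT lay between -0.41 and 0.44. Eif2ak2 on 1422006_at was called in A384T over mock with the block (0.58 ± 0.15, adjusted p = 0.0482).

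Of the 12 probe sets of the ubiquitin and ISG15 system, 0 were called with WT. With the block 2 were lower, both of Trim25, against 3.65% of all probe sets. Trim25, a ubiquitin ligase that activates RIG-I, read 0.13, -0.08 and 0 in mock, -0.28, -0.52 and -0.54 with WT, -0.50, -0.96 and -0.64 with A384T and 0.22 and -0.18 with R397W on 1419879_s_at. WT arrays lay below mock on this probe set and A384T arrays lay lower still, except for A384T 1, which fell within the WT range. A384T over mock was -0.72 ± 0.15 (adjusted p = 0.0387). A further probe set of Trim25, 1425974_a_at, was -0.68 ± 0.18 (adjusted p = 0.0964, with the block 0.00325), and 1426415_a_at was -0.20 ± 0.18. With the block, WT over mock was called on 1419879_s_at (-0.46 ± 0.10, adjusted p = 0.0151) and 1425974_a_at (-0.49 ± 0.11, adjusted p = 0.0181). On both, the block also called R397W higher than WT (0.46 ± 0.11, adjusted p = 0.0403 and 0.61 ± 0.13, adjusted p = 0.0164) and than A384T (0.71 ± 0.11, adjusted p = 0.00431 and 0.80 ± 0.13, adjusted p = 0.00392). Usp18, which removes ISG15 from proteins and dampens the interferon receptor, was -0.16 ± 0.42 with WT, with a wide error. Herc6, the ISG15 ligase of the mouse, and Dtx3l and Trim30a lay between -0.27 and 0.30 with WT and A384T.

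No PARP family probe set was called without the block. Parp14 on 1432548_at was 0.51 ± 0.34 with WT and 0.65 ± 0.34 with A384T (adjusted p = 0.533, with the block 0.0384). With the block it was lower with R397W than with WT (-0.93 ± 0.19, adjusted p = 0.0168) and A384T (-1.07 ± 0.19, adjusted p = 0.0083). The other Parp14 probe set, 1451564_at, was called in no comparison by either fit. With the block it was 0.02 ± 0.13 with WT and 0.23 ± 0.13 with A384T over mock. R397W was then -0.07 ± 0.15 over WT and -0.28 ± 0.15 over A384T on it. Parp9, the partner of Dtx3l, was -0.28 ± 0.19 and Parp12 was 0.35 ± 0.22 with WT.

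Among enzymes of nucleotides and nucleic acids, Cmpk2, a mitochondrial nucleotide kinase encoded next to Rsad2, was lower with WT on both of its probe sets. On 1450484_a_at it read 0.16, 0 and -0.04 in mock, -0.50, -0.80 and -0.86 with WT, -0.52, -0.37 and -0.72 with A384T and -0.14 and 0.06 with R397W. On 1422095_a_at it read 0, 0.12 and -0.01 in mock, -0.51, -0.57 and -0.49 with WT, -0.59, -0.46 and -0.38 with A384T and -0.40 and -0.22 with R397W. WT and A384T arrays lay below all mock arrays on both. WT over mock was -0.76 ± 0.13 (adjusted p = 0.0125) and -0.56 ± 0.09 (adjusted p = 0.0109), and A384T over mock was called on 1422095_a_at, at -0.51 ± 0.09 (adjusted p = 0.0196). With the block, 1450484_a_at was called as well in A384T over mock (-0.58 ± 0.12, adjusted p = 0.0118) and in R397W over WT (0.61 ± 0.13, adjusted p = 0.0225). The WT call on the former was lost without mock 1, WT 2 or WT 3 (adjusted p up to 0.0607) and that on the latter without WT 2 (adjusted p = 0.0504).

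Isg20, an exonuclease that degrades viral RNA, read -0.05, 0.65 and 0 in mock, 0.49, 0.83 and 0.44 with WT, 1.22, 1.39 and 0.82 with A384T and -0.50 and 0.12 with R397W. A384T arrays were high and R397W arrays low, with no overlap. R397W over A384T was -1.33 ± 0.26 (adjusted p = 0.0391), whereas A384T over mock, at 0.94 ± 0.24, was called with the block only (adjusted p = 0.0848, with the block 0.000815), as was R397W over WT (-0.89 ± 0.14, adjusted p = 0.00366). Samhd1, which hydrolyses deoxynucleotides, read 0.03, 0 and -0.35 in mock, -0.31, -0.31 and -0.39 with WT, -0.53, -0.41 and -0.50 with A384T and 0.18 and 0.12 with R397W on 1420273_x_at. R397W arrays lay above all others and A384T arrays below all others on this probe set. R397W over A384T was 0.63 ± 0.12 (adjusted p = 0.0391), and none of the other 4 Samhd1 probe sets was called without the block. With it, 1444064_at was lower in A384T over mock (-0.53 ± 0.14, adjusted p = 0.0473) and 1420272_at higher in R397W over A384T (0.54 ± 0.13, adjusted p = 0.0415).

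The largest difference from mock belonged to Rtp4, a receptor chaperone induced by interferon, on 1418580_at. It read -0.02, 0 and 0.26 in mock, -1.79, -2.65 and -2.15 with WT, -0.65, -0.77 and -0.73 with A384T and -1.33 and -0.81 with R397W. The WT arrays lay lowest, apart from every other group, and all FoxP3 arrays lay below all mock arrays. WT over mock was -2.28 ± 0.21, a 4.84-fold lower value (adjusted p = 0.000342), and both variants exceeded WT, A384T by 1.48 ± 0.21 (adjusted p = 0.037) and R397W by 1.13 ± 0.23 (adjusted p = 0.0402). A384T over mock was -0.80 ± 0.21 (adjusted p = 0.0973, with the block 0.0376). The other Rtp4 probe set, 1449143_at, was -0.37 ± 0.20 with WT (adjusted p = 0.562), so the size of the difference depends on the probe set.

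Lgals3bp, a secreted glycoprotein that binds galectin, read 0, 0.33 and -0.33 in mock, -1.15, -1.35 and -1.30 with WT, -0.62, -0.84 and -1.0 with A384T and -0.51 and 0.13 with R397W. WT lay lowest, A384T next and R397W closest to mock. WT over mock was -1.27 ± 0.20 (adjusted p = 0.00755) and R397W over WT was 1.08 ± 0.22 (adjusted p = 0.0403). A384T over mock was -0.82 ± 0.20 (adjusted p = 0.0728, with the block 0.0132). Xaf1, a pro-apoptotic gene that antagonises XIAP, read 0.15, 0 and -0.07 in mock, -0.67, -0.83 and -0.76 with WT, -0.49, -0.06 and -0.24 with A384T and -0.49 and -0.20 with R397W on 1443698_at. WT arrays lay below all others, and the fall of 0.78 with WT (SE 0.13, adjusted p = 0.0102) was lost without WT 2 (adjusted p = 0.0502). The other Xaf1 probe set was -0.36 ± 0.13. Ifi35, Sp100 and Tor3a had no called probe set.

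**Figure D3:**
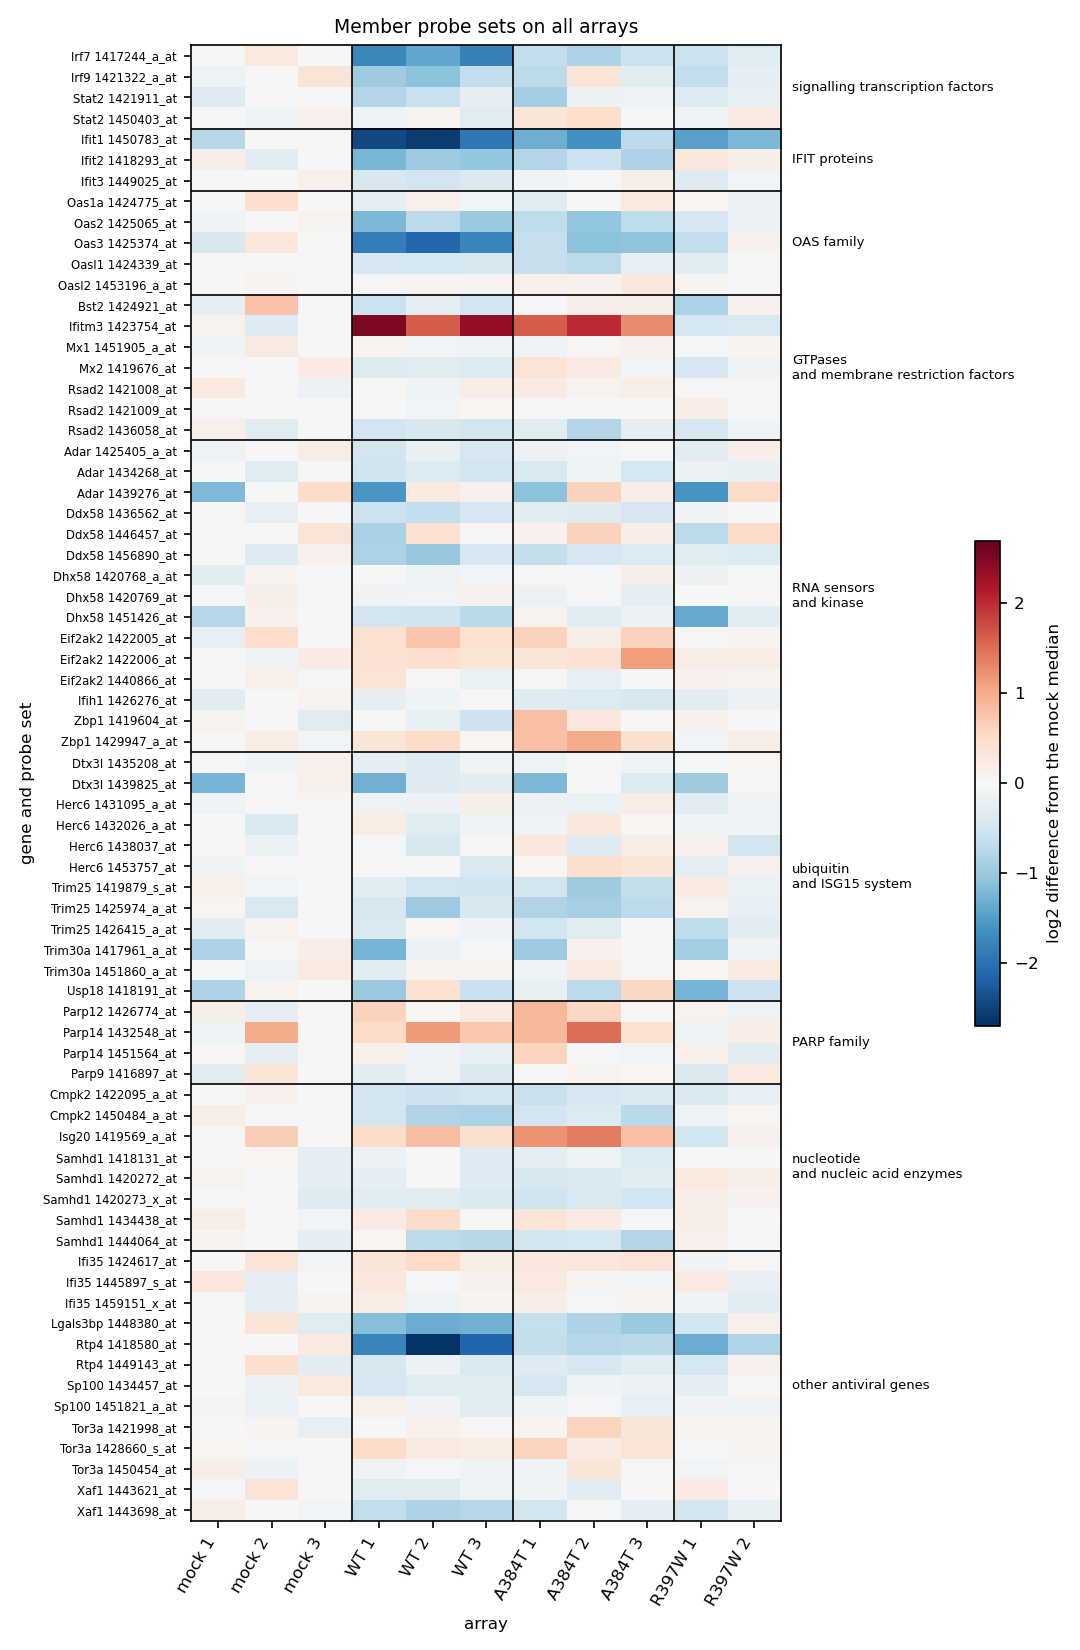
Values of all 71 member probe sets (rows, by role) on the 11 arrays (columns), coloured by log2 difference from the mock median. Low values gather in WT columns for Irf7, Ifit1, Oas3 and Rtp4, while most rows of the sensor, ubiquitin and PARP groups stay pale.

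With A384T FoxP3, 6 member probe sets passed the test against mock. Of 71 probe sets, 5 were lower (Ifit2, Irf7, Oas2, Cmpk2 and Trim25) and 1 was higher (Ifitm3), against 0.917% and 1.25% of all probe sets. The members' median was -0.0703 against -0.00673 over all, and 41 of 71 lay below 0 (57.7% against 51.6%). With the block 13 were lower and 6 higher, against 3.43% and 3.9%, a total of 19 that equals the 19 of WT over mock with the block, and the 6 higher ones were Ifitm3, Isg20, Parp14, Eif2ak2 and both probe sets of Zbp1. Taking the mean of a gene's probe sets gave 2 member genes higher and 8 lower, against 2.27% and 1.88% of 18193 genes. Of the 6 calls without the block, Ifitm3 held without any one array. The count was 2 without mock 1, A384T 1 or A384T 2, and 3 without mock 2 or mock 3, and after quantile normalization 1 was higher and 0 were lower.

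The direct comparison of both forms asks whether A384T differs from WT in these genes. A384T exceeded WT at 2 of 71 probe sets, Irf7 and Rtp4, and was lower at 0, where 0.0444% and 0.0577% of all probe sets were called. The members' median difference was 0.14 against 0.00414 over all, and 20 of 71 lay below 0 (28.2% against 48.8%). With the block, Ifit1 and Zbp1 joined them, giving 4 higher and 0 lower against 0.246% and 0.269%. Both calls were fragile without the block. Irf7 was lost in each of the 11 fits that left out an array (adjusted p up to 0.208), and Rtp4 in all but that without WT 1 (up to 0.145). With the block their adjusted p-values were 0.00843 and 0.00922. Group means in the order WT, A384T, mock were found at 26 of 71 probe sets (36.6%) against 19.7% of all.

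With R397W FoxP3, no member was called against mock in either direction, and 0% and 0% of all probe sets were called higher and lower in that comparison. With the block the counts were also 0 and 0, against 0% and 0%. At an unadjusted p under 0.05 in limma, 5 member probe sets and 829 of all passed. The 5 were Rtp4 (-1.15 ± 0.23), Ifit1 (-1.10 ± 0.31), Irf7 (-0.53 ± 0.16), Cmpk2 on 1422095_a_at (-0.34 ± 0.11) and Xaf1 on 1443698_at (-0.37 ± 0.14), and each was lower on both R397W arrays than on all mock arrays. Their adjusted p was 1. In this comparison the groups did not overlap, in either direction, at 13 of 71 members (18.3%) and 11.9% of all probe sets. R397W has 2 arrays, so its median SE was 0.155 against 0.139 between groups of 3. The members' median was -0.0786 against 0.00382 over all, and 49 of 71 lay below 0 (69% against 48.8%).

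**Figure D4:**
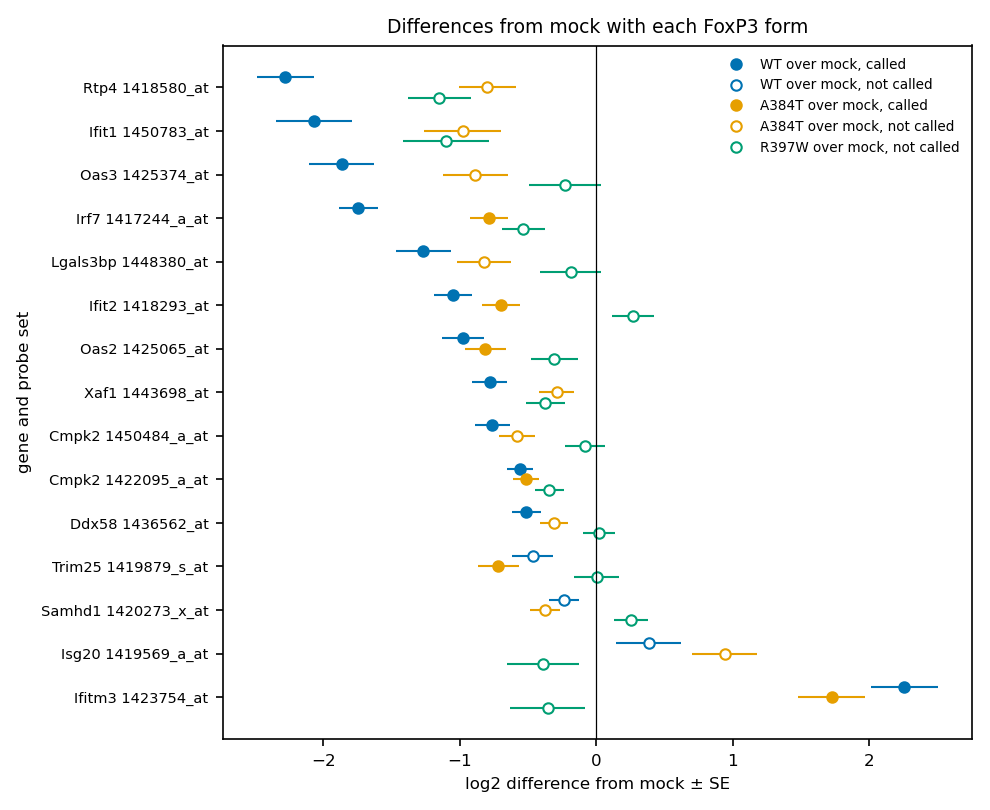
Difference from mock ± SE on the log2 scale for each FoxP3 form at the 15 member probe sets called in at least 1 comparison. Filled points were called. WT points lie farthest left for Rtp4, Ifit1, Oas3 and Irf7, and no R397W point was called.

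Against WT, R397W was higher at 5 of 71 probe sets and lower at 1, where 0.759% and 0.99% of all were called. Ifit2, Irf7, Oas3, Rtp4 and Lgals3bp were higher and Ifitm3 was lower, which reverses the direction that each of them had with WT over mock. Both comparisons use the same WT arrays, so these are not independent results. The members' median was 0.0836 against 0.0129 over all, and 27 of 71 lay below 0 (38% against 47.1%). With the block 12 were higher and 3 lower, against 2.71% and 3.07%. Ifit2 and Ifitm3 held without any one array, Irf7 was lost without R397W 2 (adjusted p = 0.0526), Oas3 without WT 2 or R397W 2 (up to 0.126), Lgals3bp in 7 of 11 such fits (up to 0.29) and Rtp4 in 10 (up to 0.291). The count was 2 without R397W 2 and 3 without WT 2, and after quantile normalization 1 was higher and 1 lower.

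The comparison of both variants gave 2 probe sets higher with R397W than with A384T, Ifit2 and Samhd1, and 2 lower, Ifitm3 and Isg20. The shares over all probe sets were 0.615% and 0.853%. The members' median was -0.105 against 0.00779, and 40 of 71 lay below 0 (56.3% against 48.2%). With the block 5 were higher and 4 lower, against 2.64% and 3.07%, adding 2 Trim25 probe sets and a further Samhd1 probe set to the higher and Parp14 and Zbp1 to the lower. Each call was lost without some array, and the count was 0 without R397W 1 or R397W 2, 1 without A384T 1, and 2 without A384T 2 or any single WT array. After quantile normalization 0 were higher and 1 lower.

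Over all 6 comparisons, 15 of 71 probe sets, in 14 genes, were called at least once, against 3.53% of all probe sets. WT had the lowest of the 4 group means at 33 of 71 (46.5%) against 26.4% of all probe sets. With the block, 27 probe sets of 21 genes were called, against 11.3% of all, and 18 genes were called by neither fit. Among the 19 genes with several probe sets, the probe sets had the same sign for 13 in WT over mock and for 10 in A384T over mock. Beside the groups, array 1 of each group was lower than the others of its group in all 4 groups at 19 of 71 members (26.8% against 17.3% of all), and higher at 9 (12.7% against 18.7%). Single probe sets of Adar, Dtx3l and Trim30a were lower there by over 0.5 in every group. Without the arrays numbered 1, WT over mock gave 1 higher and 5 lower.

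The rest of the pathway was read from lists of genes not among the members. Over all probe sets, 1.49% were called higher and 1.17% lower in WT over mock, and 1.25% and 0.917% in A384T over mock. With the block these shares were 3.98% and 3.65% with WT, and 3.9% and 3.43% with A384T. In R397W over WT they were 0.759% and 0.99%, and with the block 2.71% and 3.07%. No interferon ligand was called in any comparison (7 probe sets), and Ifnb1 was 0.10 ± 0.17 with WT. None of 17 receptor and kinase probe sets was called with WT or A384T over mock, and the kinase Jak2 on 1421065_at was higher with R397W than with WT (0.75 ± 0.15, adjusted p = 0.0328). With the block, WT over mock gave 4 higher and 2 lower and A384T over mock 1 higher. The 4 higher with WT were Ifngr2 on 1423557_at (0.65 ± 0.12, adjusted p = 0.00766), Ifngr1 (0.60 ± 0.12, adjusted p = 0.00959), Il10rb on 1419455_at (0.43 ± 0.09, adjusted p = 0.0164) and Ifnar1 on 1449026_at (0.41 ± 0.11, adjusted p = 0.0496). The 2 lower were of Jak2, with 1421065_at at -0.50 ± 0.10 (adjusted p = 0.0137). With A384T the higher one was Ifngr2 on 1423557_at (0.61 ± 0.12, adjusted p = 0.0124). No Ifnar2 probe set was called with WT or A384T by either fit. Among 16 probe sets of signalling factors, Irf4 on 1421173_at and Irf5 on 1460231_at rose with WT, by 2.24 ± 0.41 (adjusted p = 0.017) and 1.22 ± 0.26 (adjusted p = 0.0406). Irf4, a regulator of activated T cells, also rose with A384T on 1421173_at, by 2.61 ± 0.41. Its other probe set, 1421174_at, had group means of 0.04 in mock, 0.23 with WT and 0.19 with A384T, and was not called over mock by either fit. The other Irf5 probe set, 1449678_at, had means of 0.06 in mock and -0.16 with WT and was not called either. Irf1 was -0.01 ± 0.31 with WT. With the block, 2 of the signalling factor probe sets were higher and 1, of Irf3, lower with WT, and 3, of Irf4 and Irf8, were higher with A384T. Of 20 probe sets of negative regulators, 3 rose with WT and 3 with A384T, all of them Socs3, an inhibitor of JAK kinases, and 0 fell. They lay between 1.71 and 2.01 with WT, and R397W over WT had 4 lower, Socs3 again and Ptpn2. With the block, 4 negative regulator probe sets were higher with WT and 5 with A384T, and 5 were lower with R397W than with WT. Socs1, a further JAK inhibitor, was then among the higher with WT (2.31 ± 0.15, adjusted p = 6.79e-06), against 2.31 ± 0.61 (adjusted p = 0.0975) without the block. None of 13 probe sets of nucleic acid sensing genes was called, and with the block Tlr7, a receptor for RNA, was higher on 1 with WT and on 2 with A384T.

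Other interferon-stimulated genes moved in both directions. Of 64 probe sets of 37 genes, 3 rose and 4 fell with WT, against 1.49% and 1.17% of all probe sets. Ifitm2, Ifitm1 and the RNA helicase Mov10 on 1416380_at rose, by 1.79 ± 0.31, 1.33 ± 0.29 and 1.71 ± 0.26. Slfn1 on 1418612_at, Slfn8, Daxx and Rnf213 on 1455500_at fell, at -1.52 ± 0.32, -0.91 ± 0.15, -0.67 ± 0.12 and -0.52 ± 0.11. With A384T, 1 of the 64 rose, again Mov10 (1.76 ± 0.26), and 0 fell, against 1.25% and 0.917% of all probe sets. With the block these counts were 6 higher and 9 lower with WT, against 3.98% and 3.65% of all probe sets. With A384T they were 5 higher and 4 lower, against 3.9% and 3.43%. Ifitm2 (1.02 ± 0.19, adjusted p = 0.00833) and Ifitm1 (0.63 ± 0.10, adjusted p = 0.00382) were then higher with A384T, and Slfn1 (-1.01 ± 0.14, adjusted p = 0.00171) was lower. Ifitm2 was also lower with R397W than with WT (-1.93 ± 0.35), as Ifitm3 was, and Mov10 was lower with R397W than with WT (-1.97 ± 0.29) and A384T (-2.02 ± 0.29). None of 17 probe sets of MHC class I processing genes was called with WT, and Tap2, a peptide transporter, rose with A384T on 1453913_a_at (0.62 ± 0.12, adjusted p = 0.0305). With the block, 3 were lower with R397W than with A384T, against 3.07% of all probe sets.

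Because levels are lost, the labelled cell type could not be checked by the level of its markers, and only differences in marker genes of cells that might accompany the sorted T cells were read. Of 21 probe sets for plasmacytoid dendritic cells, a main source of type I interferon, none was called in any comparison without the block, and their array medians lay between -0.0567 and 0.149. With the block, Tlr7 was higher on 1 probe set with WT and 2 with A384T, and lower on 1 with R397W than with WT and with A384T. None of 10 probe sets for CD8 T, NK and gamma-delta T cells and none of 7 for granulocytes and mast cells was called by either fit. Of 20 for B cells, 2 were higher in A384T over mock, both of Ighm, and of 12 for macrophages and dendritic cells, Adgre1 was lower there and higher in R397W over A384T. Of 10 for CD4 T cells, Cd2 was higher with WT and A384T, Cd5 lower with WT and Cd28 lower with A384T. With the block, 1 Ighm probe set was also higher with WT, Cd4 on 1419696_at was lower with WT (-0.40 ± 0.09, adjusted p = 0.0186), and 3 CD4 T cell probe sets, of Cd5 and Cd28, were lower with A384T. For these counts, the shares over all probe sets are those given with the pathway lists. In R397W over A384T, 0.615% were called higher, and 3.07% lower with the block. The part of these markers in the members' differences was not tested.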

How the data were processed

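RNA was measured on 11 Affymetrix mouse arrays, 1 per sample. Per the submitters' processing notes, the authors used RMA (version not given). All 45101 probe sets had a mock median of exactly 0 and so had been centred on mock. The deposited values were taken as log2, which is the scale RMA gives, since no source used here states the centring or the base of the logarithm. Levels, dim-probe filters, background correction and slide blocks could therefore not be examined, and the number of arrays limits the precision (median residual SD 0.194 for members, 0.173 for all).

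After 64 control probe sets were left out, 45037 were fitted with limma 3.58.1 (R 4.3.3), as 4 group means with 7 residual degrees of freedom, moderated with eBayes. The 6 comparisons between groups were each adjusted by Benjamini-Hochberg. Probe sets were tested on their own, since taking the most variable probe set of a gene favours larger changes. That choice was an alternative, as were the mean of a gene's probe sets, trend and robust priors, fits of 2 groups, centring of arrays, quantile normalization, a replicate block and leaving out arrays. The fit was tested on simulated data. Figures were drawn with matplotlib 3.10.9.

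Same-numbered arrays of different groups tended to deviate together. The correlation of their deviations from group means was between 0.107 and 0.718 in all 15 pairs. In 30 pairs of unlike number it was -0.695 to 0.344. It was highest among the arrays numbered 1 (0.575 to 0.718). A384T 2 correlated less with mock 2 (0.107) and WT 2 (0.177) than with mock 3 (0.283) and WT 3 (0.276). With R397W 2 its correlation was 0.447. The 2 R397W arrays deviate by equal and opposite amounts, so their pairs are not separate evidence. The numbers, taken from the sample titles, were used as a block in an alternative fit only. The main fit does not pair the samples, because the labels do not say what a shared number marks.

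Gene symbols came from the platform annotation, in which 34958 probe sets had 1 symbol, 932 several and 9211 none. All 71 member entries matched RefSeq (GRCm38.p6) by gene identifier, with 0 symbols changed. That table gave names, neighbours and promoters. Every member could be named, those called in any comparison are given array by array with Irf7, Irf9 and Stat2, and other pathway genes are named where called, at most 4 per list and comparison. The members and lists were chosen with earlier results of these data known.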

Additional observations from a re-analysis of the deposited data

How the results depend on the processing

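With the replicate block, the count of called members was 19 for WT over mock, 19 for A384T over mock, 4 for A384T over WT, 15 for R397W over WT, 9 for R397W over A384T and 0 for R397W over mock, and no call was lost. Without the block these were 12, 6, 2, 6, 4 and 0. The block raised the count over all probe sets in WT over mock from 671 higher and 527 lower to 1792 and 1646. Several other settings lowered the counts over all probe sets as well as those of members. WT over mock had 1198 called probe sets without the block, 446 with a trend and robust prior, 478 after quantile normalization and 535 without the arrays numbered 1. In the same order, A384T over mock had 976, 329, 443 and 367, A384T over WT 46, 22, 4 and 2, R397W over WT 788, 255, 278 and 181, and R397W over A384T 661, 212, 281 and 97. With that prior, whose trend runs over centred values and not signal, the member counts were 5, 1, 0, 2 and 1 in the first 5 of these comparisons. After quantile normalization A384T over mock gave 1, A384T over WT 0, R397W over WT 2 and R397W over A384T 1. With only the 2 groups in the fit, A384T over WT gave 0, R397W over WT 2 and R397W over A384T 1. The mean of a gene's probe sets gave 10 for A384T over mock and 1 for A384T over WT. Without the arrays numbered 1 the counts were 6, 1, 0, 1 and 0. Leaving out each array in turn gave 8 to 13 calls for WT over mock, 2 to 7 for A384T over mock, 0 to 1 for A384T over WT, 2 to 6 in R397W over WT and 0 to 4 in R397W over A384T. R397W over mock gave 0 in all 19 settings. Centring the arrays on their medians changed no call among the called members and pathway genes followed. Over all probe sets it moved the count in WT over mock from 1198 to 1186. No member changed direction after a call in any setting. Of the pathway genes, Rnf213 1455500_at in WT over mock turned to 0.20 (adjusted p = 0.874) where the most variable probe set stands for the gene, since that is another probe set. Apart from these constructions, the cause of each change was not tested. No filter on dim probes could be run, so probe sets near background were tested with the rest.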
